A study of Mus musculus with 18 samples.

Results

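The genes described are the nuclear genes for the subunits of the oxidative phosphorylation machinery of mitochondria. They were chosen by symbol: every gene whose symbol starts with Ndufa, Ndufb, Ndufc, Ndufs, Ndufv, Sdha to Sdhd, Uqcr, Cox4 to Cox8 or Atp5. This gave 91 of the 16319 genes in the table, from 100 transcript entries, and the entry with the highest mean stood for a gene with several. By what their proteins do, 36 belong to complex I, 4 to complex II, 8 to complex III, 18 to complex IV (Ndufa4 and Ndufa4l2 among them) and 15 to complex V. The other 10 share a prefix and encode no subunit: the complex I assembly factors Ndufaf1, Ndufaf2, Ndufaf3 and Ndufaf4, the complex II assembly factors Sdhaf1 and Sdhaf2, and Atp5s, Atp5sl, Cox4nb and Cox7a2l. Tests covered genes at 5.53 or more normalised reads in at least 2 libraries. This left 87 of the 91 (77 subunits and the 10 others), because Cox4i2, Cox7b2, Cox8c and Ndufa4l2 were at or near 0 almost everywhere. All 36 complex I, 4 complex II, 8 complex III and 15 complex V genes were tested, and 73 of the 81 subunit genes reached that level in all 18 libraries.

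Complexes I and II feed electrons from NADH and succinate into ubiquinone, complex III passes them to cytochrome c, and complex IV hands them to oxygen. Complexes I, III and IV pump protons, and complex V, the ATP synthase, uses the gradient to make ATP. A few subunits are encoded in mitochondrial DNA and were not analysed here; the rest come from nuclear genes, some of which exist as a common and a tissue-restricted paralogue. In macrophages the pathway is known for its part in the choice between oxidative and glycolytic metabolism, and mature neutrophils are known for few mitochondria and a reliance on glycolysis.

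The values come from polyA RNA of sorted cells of C57BL/6 mice, in 9 populations with 2 libraries each. Experiment 1 held brain microglia and macrophages of the peritoneal cavity, the ileum (small intestine) and the colon (large intestine). Experiment 2 held splenic red pulp macrophages, liver Kupffer cells, lung macrophages, and monocytes and neutrophils from bone marrow. Every population was made in 1 experiment, so in the main tests populations were set only against others of their own experiment. Across experiments, the experiment and the population cannot be told apart. This holds for the alternative with macrophages of both experiments as comparator. Age is not given in the labels, nor is it said whether the libraries of a population came from separate animals, so p-values measure only the spread between these libraries. Reads in genes numbered 593552 to 1595119 per library, and 3 reads, the limit that a count of 0 allows, were worth 1.69 to 6.59 normalised reads (counting error only). In bulk samples fewer cells of a type and less RNA per cell cannot be told apart. The summed defining markers of each macrophage population were highest in its own libraries, except that the list for lung was also at 12311 and 11857 in neutrophils through Chi3l3. The list for intestine reached 7968 and 9210 in microglia through Cx3cr1. Single markers were shared, such as Timd4 of the Kupffer list, at 287 and 352 in Kupffer cells and 645 and 366 in peritoneal macrophages, and Marco of the lung list, at 527 and 853 in lung and 839 and 1117 in Kupffer cells. The monocyte list was as high in neutrophils (4397 and 4166) as in monocytes (3832 and 4290), through Ly6c2, while Ccr2 was at 609 and 539 in monocytes and at most 12.4 in neutrophils.

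A pair of features of the libraries bears on the values. The Kupffer libraries stood apart from each other: 69 of 77 subunit genes were higher in replicate 1, 39 of them by 2-fold or more, with a median log2 ratio of 0.98 against 0 for all 12098 tested genes, whereas at most 7 subunits differed 2-fold between the libraries of any other population. Kupffer replicate 1 also held more hepatocyte marker reads (2148 against 349 in replicate 2) and more cytosolic ribosomal protein reads (59556 against 23292); their part in the difference was not tested. Results of experiment 2 are therefore given with and without each Kupffer library. In the neutrophil libraries the deposited columns summed to 1818206 and 1883301 against 938759 to 1215278 elsewhere, and 7 neutrophil granule and surface markers alone took 216293 and 272252. Scaling all columns to equal totals thus moved every neutrophil value down. Counts of members called in neutrophils are given under both scalings, and other neutrophil values under the deposited one unless stated.

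Summed over the subunits, oxidative phosphorylation transcripts differed about 2-fold between the lowest and highest macrophage populations. Within experiment 1 the sum was 11158 and 10230 normalised reads in the microglia libraries, 16994 and 14591 in peritoneal macrophages, 20641 and 21390 in small intestine and 21839 and 24823 in large intestine macrophages. The populations did not overlap in that order, apart from the intestinal pair lying close together. With columns scaled to equal totals the intestinal pair overlapped, with 21180 and 20511 in small and 20565 and 23487 in large intestine. Peritoneal macrophages were then at 19447 and 17199, and microglia at 11775 and 10451. Within experiment 2, spleen had 12788 and 12824, Kupffer cells 19467 and 10346, lung 20884 and 19859, monocytes 18594 and 21026, and neutrophils 21152 and 19932. Spleen lay below lung, monocytes and neutrophils, which overlapped, while Kupffer cells spanned nearly the whole range. With columns scaled to equal totals the neutrophil sum became 12873 and 11711, next to spleen with 12870 and 12656, and the lung sum stayed at 20751 and 19693.

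**Figure D1:**
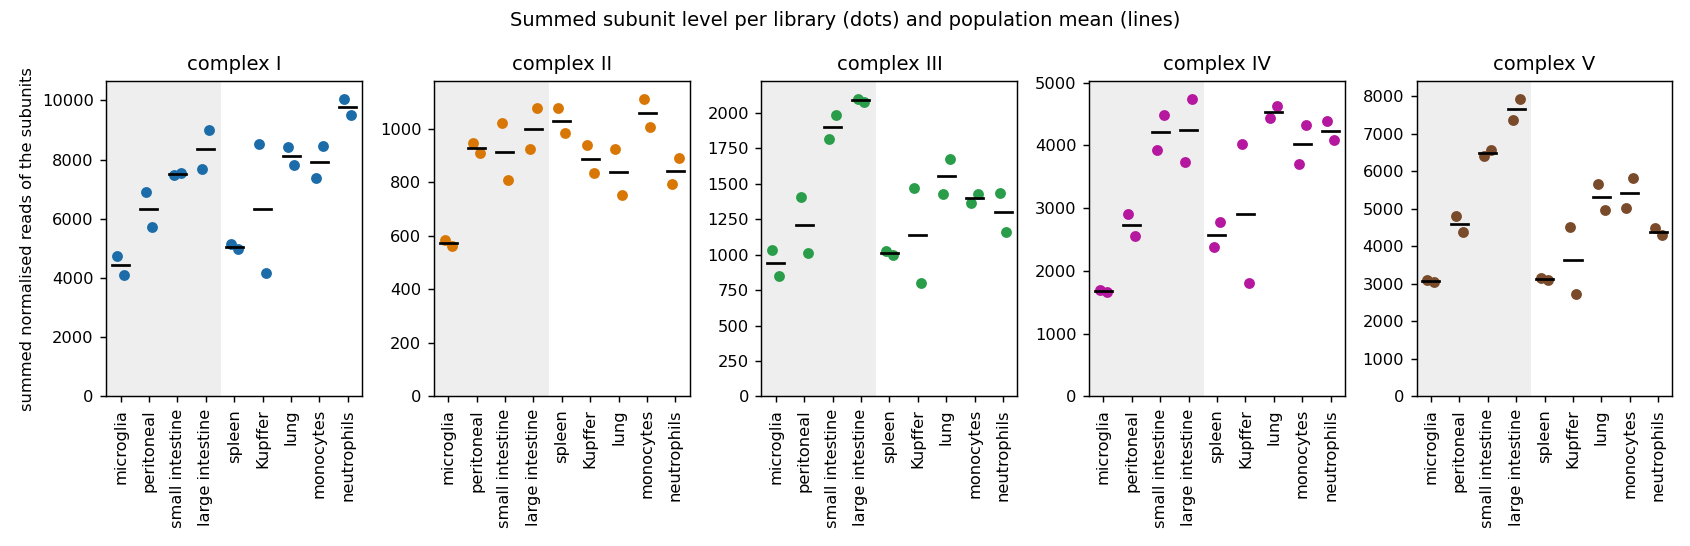
Summed normalised reads of the subunit genes of each complex in every library (dots) with the mean of each population (lines); grey shading marks experiment 1, and each panel has its own scale starting at 0. Microglia have the lowest mean in experiment 1 in every panel (complex V at 3101 and 3055), with an overlap with peritoneal libraries in complex III. The Kupffer libraries lie far apart in every panel but complex II.

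The complexes did not keep a fixed proportion. The ratio of the complex I sum to the complex V sum within a library, which does not depend on the scaling of the columns, was 1.17 and 1.15 in small intestine and 1.04 and 1.13 in large intestine macrophages. It was 2.24 and 2.22 in neutrophils and 1.30 to 1.88 in the other 12 libraries, so the intestinal macrophages and the neutrophils lay outside all others at opposite ends. Complex II against complex V was 0.341 and 0.316 in spleen, with Kupffer cells at 0.208 and 0.306, and 0.123 to 0.221 elsewhere. Complex IV against complex V ran from 0.507 in a large intestine library to 0.977 in a neutrophil library, and complex III against complex V from 0.231 to 0.337. These ratios add up genes of different lengths, so they compare libraries and not the amounts of the complexes. With 2 libraries a population they are given as a description.

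**Figure D2:**
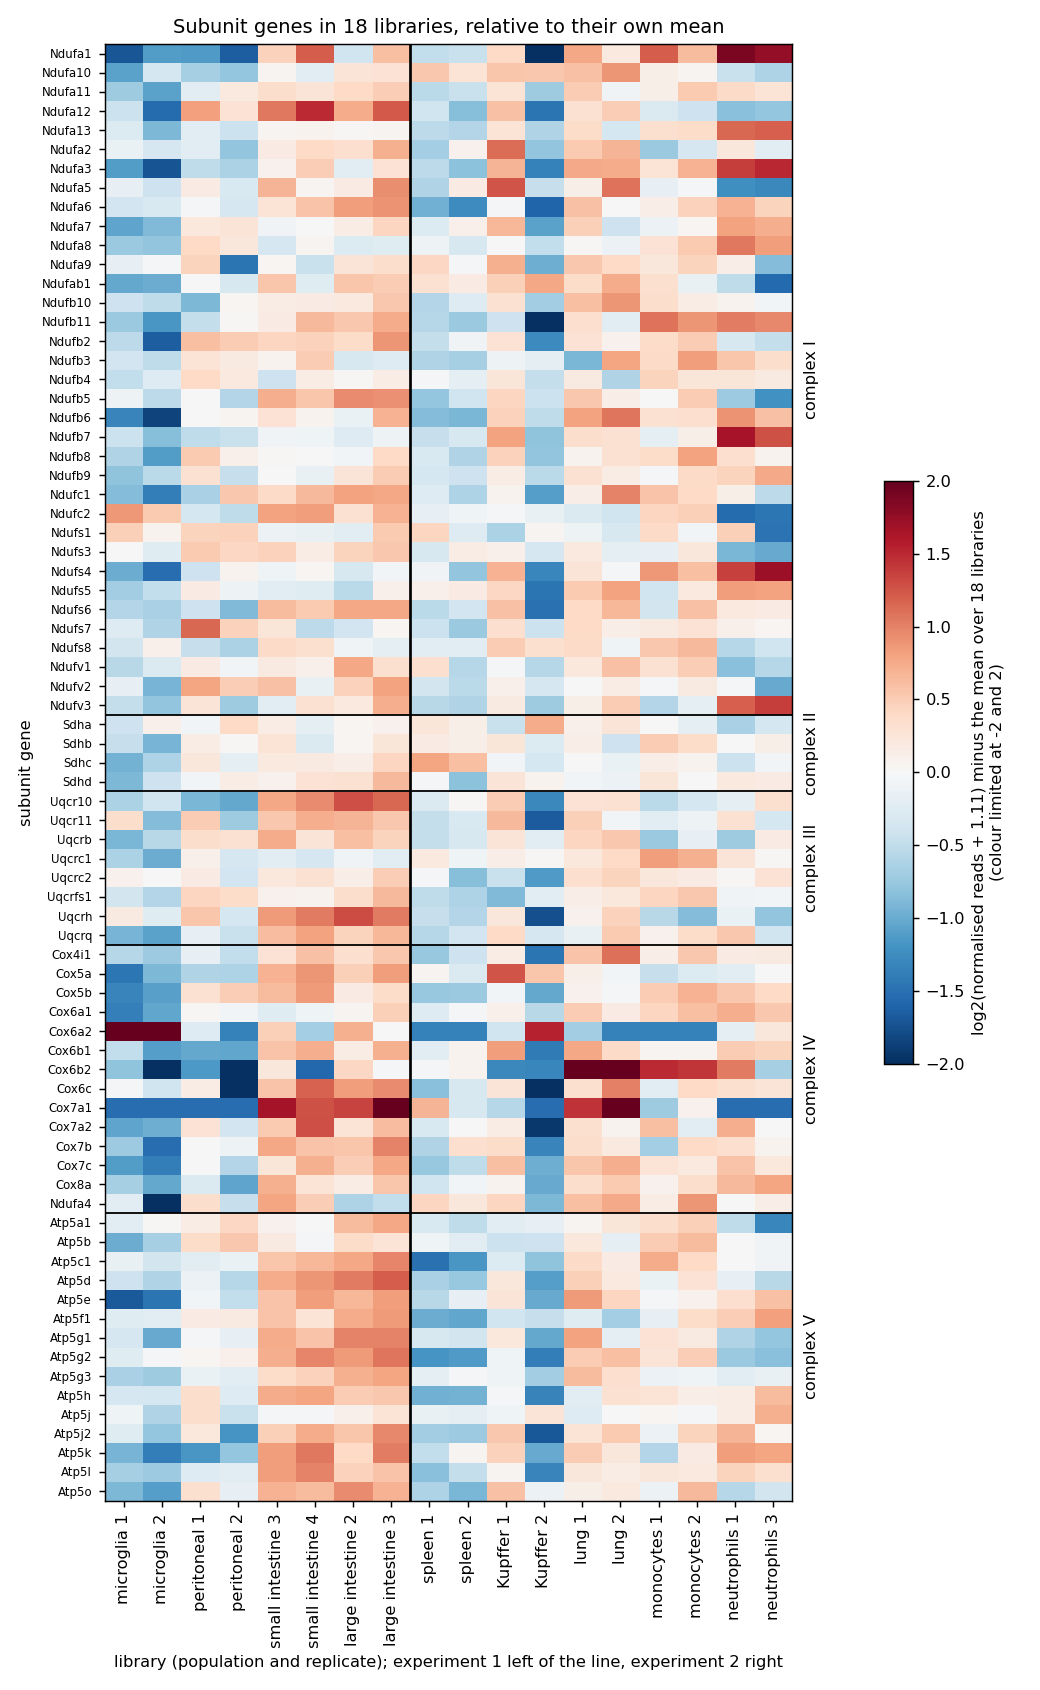
Level of the tested subunit genes, 1 of complex I left out (down, grouped by complex) in the 18 libraries (across), as log2(normalised reads + 1.11) minus the gene's own mean; red is above the mean and blue below, limited at -2 and 2. Microglia and Kupffer replicate 2 are mostly blue, the intestinal libraries are red in complexes IV and V, and the neutrophil columns are red and blue within complex I.

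Microglia had the lowest mean sum of subunit reads in experiment 1, in all 5 complexes. In complex III the microglia libraries, at 1033 and 846, overlapped the peritoneal ones, at 1406 and 1012. By gene, microglia had the lowest mean of the 4 populations for 64 of 77 subunits, including all 15 of complex V and all 4 of complex II. Of the 87 tested members 1 rose and 30 fell against the mean of the other 3 populations, that is 35.6% called, where 25.8% of all 12098 genes were called (10.7% upward and 15.1% downward). "Rose" and "fell" mean a limma p, adjusted by the Benjamini-Hochberg method (BH), under 0.05 together with a change of 2-fold or more. The members' median log2 fold change was -0.78, against -0.06 for all tested genes. By complex, 13 of 36 fell in complex I (median -0.72), 2 of 8 in complex III (-0.78), 7 of 14 in complex IV (-1.31) and 8 of 15 in complex V (-1.002). For complex II the median was -0.83 and no gene reached the fold threshold, although 3 of 4 had an unadjusted p under 0.05.

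The complex V gene Atp5e, the epsilon subunit of the rotating stalk, was at 86.4 and 101 normalised reads in microglia and at 198 to 502 in the other 6 libraries of the experiment. Its log2 fold change was -1.96 ± 0.27 (SE; limma, BH-adjusted p = 2.62e-05), the lowest among complex V subunits. Atp5o, the subunit that joins the stator to the catalytic head, had 117 and 102 in microglia and 197 to 427 elsewhere. In neither gene did the groups overlap. In complex IV, Cox5b was at 111 and 132 in microglia and at 314 to 505 elsewhere, a log2 fold change of -1.67 ± 0.23 (limma with BH, adjusted p = 2.47e-05). Cox6a1 was at 384 and 480 against 842 to 1379, and Cox7b at 42.8 and 24.1 against 66.3 to 143. In complex I the lowest log2 fold changes belonged to the accessory subunits Ndufa12, at 59.2 and 26.9 in microglia against 97.5 to 228, and Ndufb6, at 27.2 and 18.5 against 63.7 to 114, with values of -1.92 ± 0.40 and -1.75 ± 0.30. Ndufb2, a membrane arm subunit, was at 77.5 and 34.8 against 145 to 206 (log2 fold change -1.62 ± 0.34). The member that rose was Cox6a2, described with its paralogue further on. Without microglia replicate 2 the members' median log2 fold change was -0.72, but fewer members were called. Their share called was then no higher than that of all genes called in either direction. Ndufa12, Ndufb2 and Cox7b were among those that lost their call. Cytosolic ribosomal protein genes moved in the same direction, with 1 of 89 rising and 37 falling (median -0.94), and mitochondrial ribosomal protein genes less far, with 0 of 76 rising and 11 falling (median -0.36).

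In macrophages of both intestinal segments the subunit genes were higher than in microglia and peritoneal macrophages, with the largest shares in complexes IV and V. In small intestine 22 of 87 members rose and 0 fell (16.9% of all genes called), and in large intestine 22 rose and 0 fell (17.9% of all genes called). Restricted to the upward direction, 25.3% of members rose in each, against 12.5% and 12.8% of all genes, while 4.36% and 5.11% of all genes fell. The median log2 fold change was 0.68 in small and 0.78 in large intestine, against 0.12 and 0.07 for all genes. These comparisons share the microglia and peritoneal libraries, so they are not independent of each other or of the microglia result. In small intestine 8 of 14 complex IV genes, 6 of 15 complex V, 2 of 8 complex III, 5 of 36 complex I and 0 of 4 complex II genes rose. In large intestine the counts were 6 of 14, 7 of 15, 3 of 8, 6 of 36 and 0 of 4, and for complex II the unadjusted p was under 0.05 for 1 gene in small and 2 in large intestine.

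Cox5a was at 418 and 475 normalised reads in small intestine and 360 and 459.5 in large intestine, against 94.0 to 169 in microglia and peritoneal macrophages. Its log2 fold changes were 1.68 ± 0.24 and 1.55 ± 0.24 (limma with BH, adjusted p = 7.88e-05 and 1.50e-04). With macrophages of both experiments as comparator they were 0.98 and 0.85, and the calls ended. The complex V genes Atp5k and Atp5e showed the same lack of overlap. Atp5k, the small membrane subunit e that takes part in ATP synthase dimers, was at 111 and 129 in small and 81.9 and 127 in large intestine against 23.2 to 35.7, with log2 fold changes of 2.00 ± 0.37 and 1.77 ± 0.37, and it did not pass in large intestine without large intestine replicate 3 (limma with BH, adjusted p = 0.0654). Atp5e was at 414 and 502 in small and 445 and 499.6 in large intestine against 86.4 to 268. Atp5d, the delta subunit of the stalk, was at 1626 and 1823 in large intestine against 519 to 730, a log2 fold change of 1.55 ± 0.29. In complex III, Uqcr10, a small accessory subunit, was at 291 and 326 in small and 416 and 377 in large intestine, against 82.1 to 127.5, and its log2 fold changes were 1.60 ± 0.34 and 1.97 ± 0.34. Ndufa1, an accessory subunit of the membrane arm, was at 105 and 177 in small intestine and 57.8 and 116 in large intestine, against 22.6 to 34.3. Its log2 fold change in small intestine was 2.24 ± 0.50, and there it did not pass without small intestine replicate 4 (limma with BH, adjusted p = 0.0950). Among the genes that are no subunits, Sdhaf1 rose in small intestine by 1.85 ± 0.50 on the log2 scale, and did not pass without small intestine replicate 3 or 4 (limma with BH, adjusted p = 0.0724 and 0.160) or with the libraries of experiment 1 alone (0.0780).

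Several measures moved along with the intestinal values. Markers of gut epithelium summed to 610 and 224 in small and 891 and 868 in large intestine and to at most 5.17 in microglia and peritoneal macrophages; all 5 were detected in each intestinal library, and their part in the result was not tested. Cytosolic ribosomal protein genes rose too, 46 of 89 in small and 34 of 89 in large intestine. Fewer members were called in small intestine without its replicate 3 or 4, with median log2 fold changes of 0.71 and 0.68. The same held in large intestine without its replicate 3 (median 0.66). Without small intestine replicate 4 or large intestine replicate 3, the share of members called was close to that of all genes called in either direction. With columns scaled to equal totals 14 of the 22 kept their call in large intestine.

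Between small and large intestine macrophages no member was called by limma, at 1.13% of all genes called (0.388% upward and 0.744% downward). At an unadjusted p under 0.05 there was 1 of 87, and log2 fold changes ran from -0.87 to 1.19 with a median of -0.16. Complex V was lower in small intestine for 12 of 15 genes (median -0.22) and complex IV was even (7 higher, 7 lower).

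Peritoneal macrophages lay between microglia and the intestinal populations and showed no common shift. Of 87 members 1 rose and 8 fell (21.3% of all genes called, 6.97% upward and 14.4% downward), and the median log2 fold change was -0.16, beside -0.18 for all genes. Complex II was slightly positive in all 4 genes (median 0.17) and complex IV lowest (median -0.54, 4 of 14 fell). Ndufs7, the core subunit that carries the last iron-sulfur cluster before ubiquinone, was at 523 and 324 normalised reads in peritoneal macrophages against 155 to 281 in the other populations of the experiment. It rose by a log2 fold change of 1.04 ± 0.27 (limma with BH, adjusted p = 0.00774), but did not pass without peritoneal replicate 1 (0.198) and was at 0.98 with macrophages of both experiments as comparator. Uqcr10 was at 89.5 and 82.1, below the 109 to 416 of the others, a log2 fold change of -1.49 ± 0.32. Ndufc2, a membrane arm subunit, was at 76.9 and 68.6 against 121 to 179 (-1.10 ± 0.22), and its call ended with columns scaled to equal totals (-0.87) and with macrophages of both experiments as comparator (-0.67). The others that fell were Atp5k, Cox6a2, Cox6b1, Cox6c, Cox7a1 and Sdhaf1, and for each of these 6 the peritoneal libraries overlapped at least 1 library of the comparator. The count of 9 became 4 without either peritoneal library, 5 without small intestine replicate 4 and, with columns scaled to equal totals, 1 that rose and 4 that fell.

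**Figure D3:**
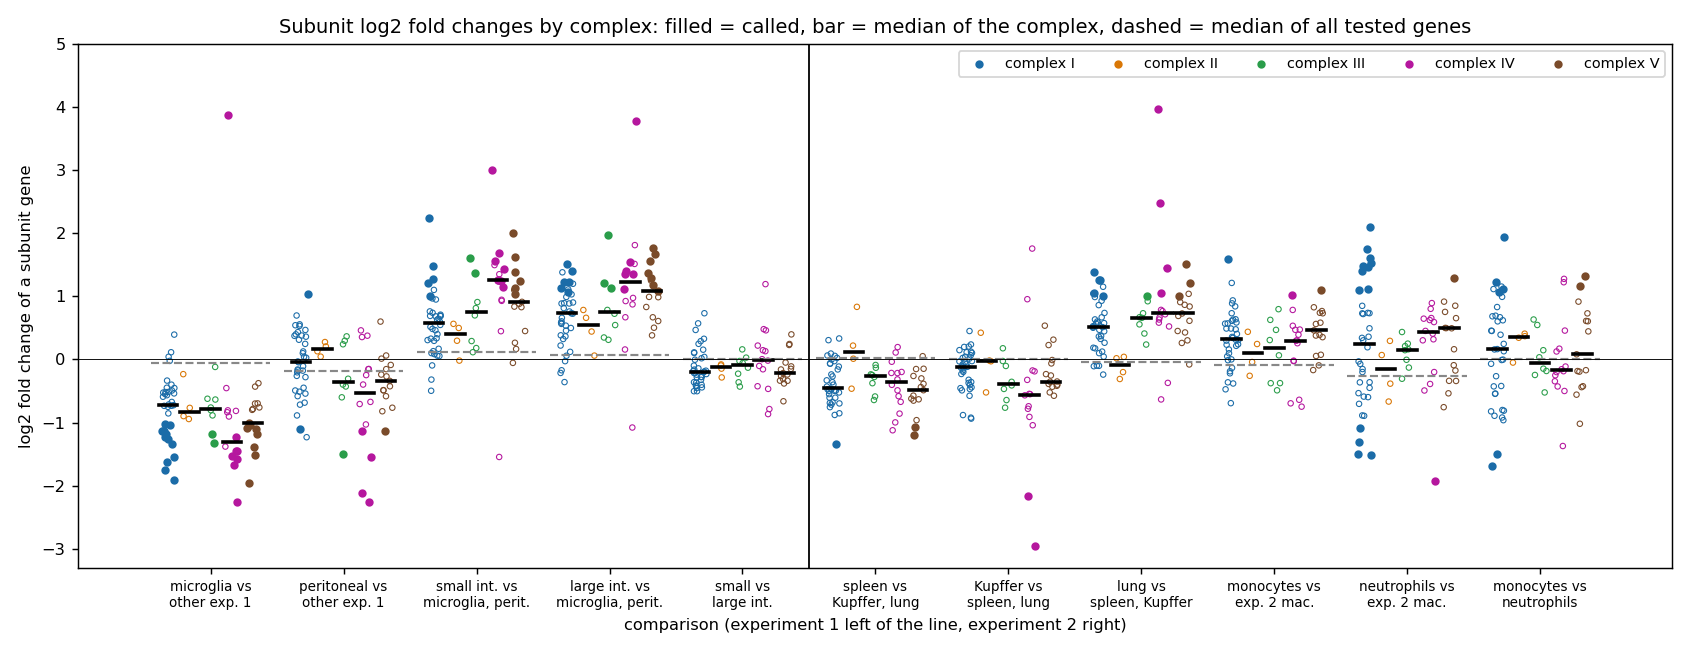
Log2 fold change of each tested subunit gene (points, coloured by complex) in the 11 comparisons; filled points were called, black bars are the median of a complex and dashed lines the median of all tested genes. In microglia the medians of the 5 complexes lie between -1.31 and -0.72, in the intestinal populations they are all positive and highest for complex IV, and in spleen and lung complex II sits apart from the other complexes.

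Among the macrophages of experiment 2, lung had the highest mean of the 3 populations for 62 of 77 subunits, and spleen the lowest for 54. The subunit sum of Kupffer replicate 2 lay below both spleen libraries, so the order of spleen and Kupffer cells differed between the Kupffer libraries. Against the mean of spleen and Kupffer cells, 14 of 87 members rose in lung and 0 fell (17.9% of all genes called; upward alone 16.1% of members and 7.85% of all genes, with 10.1% of all genes downward). The median log2 fold change was 0.59 against -0.05 for all genes. Complexes I, III, IV and V had medians of 0.52, 0.66, 0.74 and 0.73, and complex II of -0.09. Without Kupffer replicate 1 the lung count was 30, without Kupffer replicate 2 it was 6, and it became 9 and 5 without lung replicates 1 and 2.

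In complex IV, Cox4i1, the common form of the subunit 4 that regulates the enzyme, was at 1266 and 1821 normalised reads in lung, against 502 and 641 in spleen and 944 and 308 in Kupffer cells. Its log2 fold change was 1.45 ± 0.32 (limma with BH, adjusted p = 0.00274), and it did not pass without lung replicate 2 (0.0911). Atp5g2, which encodes the c subunit of the rotor ring, was at 303 and 323 in lung against 80.4 to 199.9, a log2 fold change of 1.51 ± 0.28 (limma with BH, adjusted p = 5.61e-04). Ndufb6 was at 123 and 148 in lung against 36.5 to 96.2, and Ndufa6 at 473 and 314 against 103 to 307, with log2 fold changes of 1.39 ± 0.32 and 1.26 ± 0.32. In none of these 4 genes did lung overlap the other macrophages. Ndufb6 did not pass without lung replicate 2 (limma with BH, adjusted p = 0.0623), nor Ndufa6 without lung replicate 1 (0.122). With the libraries of experiment 2 alone, Cox4i1 and Ndufa6 did not pass (limma with BH, adjusted p = 0.0535 and 0.0799), and with macrophages of both experiments as comparator the log2 fold changes of Atp5g2 and Ndufa6 were 0.58 and 0.49 and the calls ended. Cox7a2l, which is known as a factor of respiratory supercomplexes, rose as well (1.08 ± 0.24), from 144 to 304 in the comparator libraries to 338 and 447, but with that comparator it was at 0.37 and not called, and it did not pass without lung replicate 2 (limma with BH, adjusted p = 0.0850). Lung epithelial markers (Sftpc, Sftpb, Sftpa1 and Scgb1a1) summed to 1004 and 1072 in lung and at most 17.6 in every other library, with all 4 detected in both lung libraries; their part in the result was not tested. Of 89 cytosolic ribosomal protein genes 21 rose in lung (median 0.91).

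In spleen red pulp macrophages 0 members rose and 4 fell against Kupffer and lung macrophages (10.6% of all genes called, 5.71% upward and 4.84% downward), while 71 of 87 had a negative log2 fold change (median -0.40, all genes 0.03). The 3 that did not overlap the comparator were Ndufb6, at 37.9 and 36.5 normalised reads against 49.0 to 148, Atp5c1, the gamma subunit of the central stalk, at 61.6 and 78.2 against 101 to 230, and Cox7a2l, at 152 and 144 against 171 to 447. Their log2 fold changes were -1.35 ± 0.32, -1.20 ± 0.23 and -1.003 ± 0.24 (limma with BH, adjusted p = 0.00906, 0.00203 and 0.0110). Atp5g2 fell by 1.07 on the log2 scale, and its lowest Kupffer library lay below spleen. Complex II did not share the lower level: Sdhc, a membrane anchor of succinate dehydrogenase, was at 300 and 264 in spleen, above the 135 to 173 of the Kupffer and lung libraries. Its log2 fold change was 0.83 ± 0.23 (limma with BH, adjusted p = 0.0224), under the fold threshold. The catalytic Sdha and the iron-sulfur subunit Sdhb had 0.01 ± 0.30 and 0.22 ± 0.24, and Sdhd, the other anchor, -0.46 ± 0.28. Without spleen replicate 1 none of the 4 passed, and without spleen replicate 2 only Atp5c1 did; the count was 2 without Kupffer replicate 1 and 13 without Kupffer replicate 2. Erythroid markers summed to 5786 and 4444 in spleen against 95.6 to 2716 in Kupffer and lung libraries; their part in the result was not tested.

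The Kupffer libraries differed from each other by a median log2 value of 0.98, and their median log2 fold change from spleen and lung was -0.20. Of 87 members 0 rose and 2 fell (10.0% of all genes called, 5.46% upward and 4.56% downward), the paralogues Cox6b2 and Cox7a1, and neither passed without Kupffer replicate 2 (limma with BH, adjusted p = 0.0744 and 0.277). Without Kupffer replicate 1 the counts were 1 and 23 with a median of -0.66, and without replicate 2 they were 1 and 0 with a median of 0.28. The direction thus changed with the library left out, and no direction is given for Kupffer cells. Cox6b2 was at 1.04 and 1.01 normalised reads in Kupffer cells, 3.99 and 4.38 in spleen and 34.8 and 75.3 in lung. Cox7a1 had means of 0.52 in Kupffer cells, 2.72 in spleen and 13.2 in lung. The Kupffer values lay below 3 reads, worth 3.12 and 3.03 there, and both calls follow in part from the level in lung. Without lung replicate 2 the count was 1, and with quantile normalization 1 rose and 2 fell. Uqcrh, a complex III subunit, was at 259 and 64.1, Cox6c at 59.8 and 9.59, and Ndufa1 at 101 and 16.2, whereas in complex II Sdhb was at 589 and 409 and Sdhc at 166 and 135, and Sdha was higher in replicate 2, at 90.4 and 208.

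In monocytes few members were called, with 3 of 87 members rising and 0 falling (19.4% of all genes called, 7.39% upward and 12.0% downward) and a median of 0.30 against -0.08. Ndufb11, a membrane arm subunit encoded on the X chromosome, was at 434 and 375 normalised reads against 47.9 to 257 in spleen, Kupffer and lung macrophages, a log2 fold change of 1.59 ± 0.32 (limma with BH, adjusted p = 0.00135). Atp5c1 was at 296 and 233 against 61.6 to 230, and Cox5b at 398 and 452 against 137 to 296.5, with log2 fold changes of 1.11 ± 0.21 and 1.02 ± 0.23. The monocyte libraries lay above these 6 macrophage libraries in the 3 genes, narrowly for Atp5c1, while the neutrophil libraries overlapped them in Ndufb11 and Cox5b. The call of Cox5b ended without monocyte replicate 2, without Kupffer replicate 2 and without lung replicate 2. That of Atp5c1 ended without monocyte replicate 1. The members' median log2 fold change was 0.48 without Kupffer replicate 1, where more members were called, and 0.13 without Kupffer replicate 2.

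In neutrophils, complex I genes were called in both directions, as were genes in general. On the deposited scaling 10 members rose and 8 fell (38.8% of all genes called, 15.9% upward and 22.9% downward). Of these 18, 13 were among the 36 complex I subunits, 9 higher and 4 lower. The share of complex I genes called in either direction was thus close to that of all genes. Those that rose were Ndufa1, Ndufs4, Ndufb11, Ndufa3, Ndufb7, Ndufv3, Ndufa13, Ndufa8 and Ndufa6, accessory subunits of the membrane and matrix arms. Those that fell were Ndufa5, Ndufab1 (the mitochondrial acyl carrier protein), Ndufc2 and Ndufa10. The core subunits encoded by Ndufs1, Ndufs3, Ndufs7, Ndufs8, Ndufv1 and Ndufv2 were not called in either direction on this scaling. Of these, Ndufs3, Ndufs8 and Ndufv1 were at -0.89, -0.60 and -0.70, under the fold threshold, with adjusted p under 0.05 (limma with BH). With columns scaled to equal totals Ndufs3, Ndufs8, Ndufv1 and Ndufv2 were called lower (-1.61, -1.33, -1.44 and -1.10). Outside complex I, Atp5f1, the b subunit of the stator, rose (1.30 ± 0.21). With columns scaled to equal totals it was at 0.56 and not called. The paralogue Cox7a1, listed at 0 in both neutrophil libraries, fell. No complex II or III gene was called on the deposited scaling (1 of 12 with an unadjusted p under 0.05). With equal totals Sdha and Sdhc of complex II were called lower (-1.40 and -1.12).

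Ndufa1 was at 282 and 259.5 normalised reads in neutrophils, whereas spleen had 53.8 and 55.5, Kupffer cells 101 and 16.2, and lung 130 and 86.9, a log2 fold change of 2.11 ± 0.47 (limma with BH, adjusted p = 0.00140). Ndufs4, an accessory subunit whose loss in mice causes a disease like Leigh syndrome, was at 172 and 220 against 26.2 to 108 (1.75 ± 0.39). Ndufb7 was at 991 and 765 against 179 to 548, and Ndufv3, a small subunit of the NADH-oxidising part, at 694.5 and 789 against 185 to 428. Neutrophils lay above every macrophage library of the experiment in these 4 genes. In the other direction, Ndufc2 was at 33.1 and 35.2 in neutrophils against 74.2 to 96.7, a log2 fold change of -1.31 ± 0.22 (limma with BH, adjusted p = 1.06e-04). Ndufa5 was at 13.8 and 13.2 against 21.9 to 82.1 (-1.52 ± 0.43), and it did not pass without either neutrophil library (limma with BH, adjusted p = 0.0544 and 0.0748). The assembly factors Ndufaf1, Ndufaf2 and Ndufaf4 fell by 1.76, 2.33 and 2.37 on the log2 scale, from low levels: Ndufaf2 was at 2.76 and 2.20 in neutrophils against 9.97 to 39.9. The assembly factor Ndufaf3 did not share this, with a log2 fold change of 0.93 and no call (limma with BH, adjusted p = 0.149). Ndufaf1 and Ndufaf4 did not pass without neutrophil replicate 3 (limma with BH, adjusted p = 0.139 and 0.380).

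How many complex I genes were called higher in neutrophils depended on the scaling. With columns scaled to equal totals, 2 members rose and 25 fell, and the median of all genes moved from -0.26 to -0.81. Of the 10 that rose, Ndufa1 and Ndufs4 remained called, and of the 8 that fell all 8 did. With quantile normalization 3 rose and 7 fell. The share of all genes called is not given for these scalings, so these counts are not a result about the members. No called gene changed sign under these scalings. Scaling to equal totals shifts all genes of a comparison nearly alike, and the complex I log2 fold changes then ran from Ndufa5 at -2.19 to Ndufa1 at 1.37. Without Kupffer replicate 1 the count was 17 that rose and 8 that fell, and without Kupffer replicate 2 it was 9 and 9. The 5 erythroid markers summed to 7537 and 2017 in neutrophils and to 95.6 to 5786 in the macrophages of the experiment; their part in the result was not tested.

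**Figure D4:**
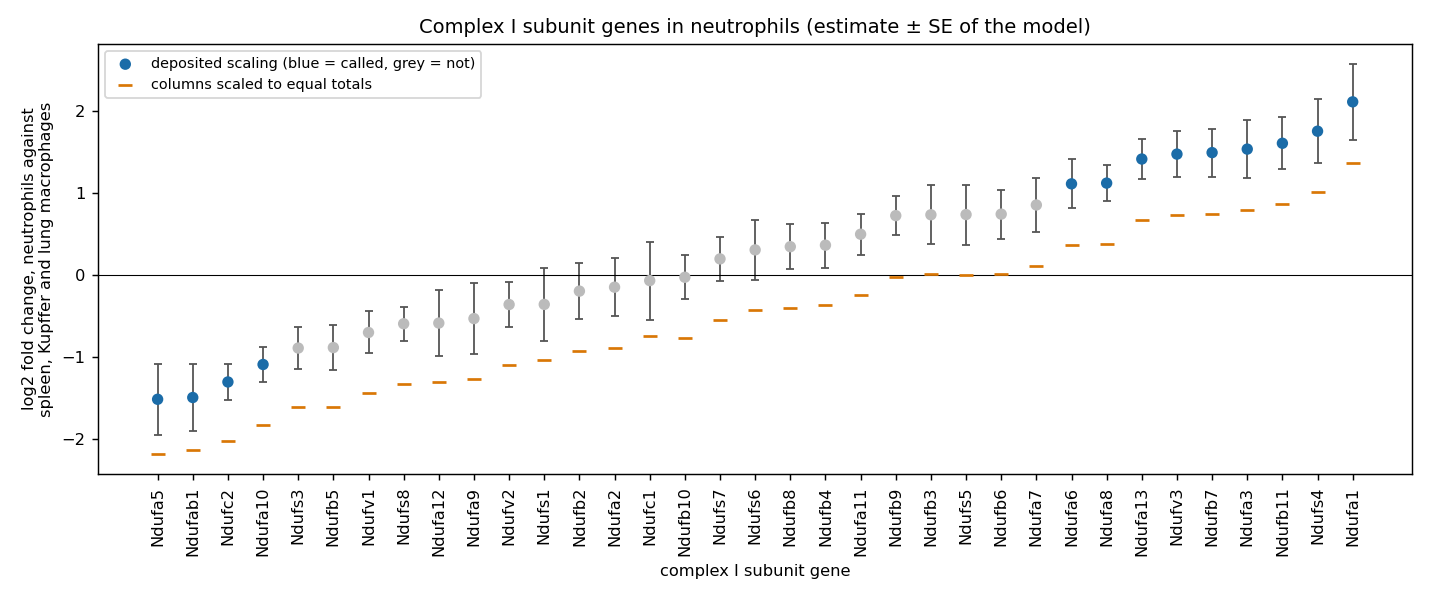
Log2 fold change of the complex I subunit genes, 1 uncalled gene left out, in neutrophils against spleen, Kupffer and lung macrophages (points with the SE of the model; blue were called), ordered by value; orange dashes give the same genes with columns scaled to equal totals. The 9 genes that rose and the 4 that fell stand at opposite ends, and under equal totals every gene shifts down, with Ndufa1 at 1.37 and Ndufa5 at -2.19.

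The direct comparison of monocytes with neutrophils gave 8 members higher and 2 lower in monocytes (23.5% of all genes called, 12.2% upward and 11.3% downward). Ndufc2 was at 132 and 137 in monocytes. Atp5a1, the alpha subunit in the head of complex V, was at 552 and 598 in monocytes against 303 and 174 in neutrophils. Both were higher in monocytes, by log2 fold changes of 1.94 ± 0.27 and 1.32 ± 0.26 (limma with BH, adjusted p = 3.33e-05 and 9.83e-04). Ndufv3, at 199.5 and 262 in monocytes, was lower (-1.69 ± 0.35), and so was Ndufb7, at 278 and 339 in monocytes, though neither was called with columns scaled to equal totals (-0.91 and -0.72). Here too the scaling set the split: equal totals gave 30 higher and 0 lower, and quantile normalization 15 and 1. With equal totals the median log2 fold change of all genes moved from 0 to 0.56. The share of all genes called is not given for these scalings, so the split is not a result about the members. The count became 6 without monocyte replicate 2 and 5 without neutrophil replicate 3.

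Over all populations of an experiment at once, 45 of 87 members differed in experiment 1 (moderated F test of limma, BH-adjusted p under 0.05; 35.2% of all genes passed) and 42 in experiment 2 (51.2% of all genes passed). In experiment 1 the share was highest for complex IV, 11 of 14, and complex V, 11 of 15, and lower for complex I, 17 of 36, complex II, 2 of 4, and complex III, 3 of 8. In experiment 2 it was 19 of 36, 1 of 4, 2 of 8, 7 of 14 and 10 of 15 for complexes I to V. The count in experiment 1 became 28 without microglia replicate 2; that in experiment 2 was 62 without Kupffer replicate 1 and 51 without Kupffer replicate 2, 28 without neutrophil replicate 3, 31 without monocyte replicate 2 and 22 with the libraries of experiment 2 alone. Of the 87, 18 were called in none of the 11 comparisons and passed neither F test. They were 7 complex I subunits (among them the core subunit Ndufs1), Sdha and Sdhb, Uqcrc1 and Uqcr11, Ndufa4, Atp5j and Atp5j2, and 4 genes that are no subunits. Ndufb4 was within 54.4 to 114 normalised reads over all 18 libraries, but Ndufa4 ran from 1.85 to 30.3, so missing the thresholds does not show an equal level. The highest F within complexes I to V belonged to Ndufb6, Sdhc, Uqcr10, Cox5a and Atp5e in experiment 1, and to Ndufc2, Sdhc, Uqcrfs1 (the Rieske protein), Cox5b and Atp5c1 in experiment 2. The lowest belonged to Ndufs1, Sdha, Uqcrc2, Cox6b2 and Atp5j, and to Ndufs1, Sdhb, Uqcr11, Ndufa4 and Atp5j.

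Of the 7 paralogues known from single tissues, Cox6a2, Cox6b2 and Cox7a1 were detected above a few reads. Their common partners were present in all 18 libraries. Cox6a2, known as the form of heart and skeletal muscle, was at 30.1 and 41.7 normalised reads in microglia and at 7.07 or less in every other library. It reached the level for testing in the microglia libraries and Kupffer replicate 2 only, so its call in microglia follows in part from that filter, and its log2 fold change of 3.87 ± 0.59 is given as a description. Its partner Cox6a1 was at 384 and 480 in the same libraries, its lowest level anywhere. The muscle markers Myh6, Ckm, Actc1 and Myh7 were listed at 0 in both microglia libraries.

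Cox6b2, known as the form of testis, was at 34.8 and 75.3 in lung macrophages, 13.6 and 13.04 in monocytes, 9.65 and 2.20 in neutrophils and 5.89 or less in the other libraries. Against spleen and Kupffer cells its log2 fold change in lung was 3.96 ± 0.72 (limma with BH, adjusted p = 5.14e-04), and the call held under every alternative and without any single library. Cox6b1 was at 500.0 and 380 in the lung libraries and at 108 to 517 in the other macrophages of experiment 2. Cox7a1, known from heart and skeletal muscle, was at 8.99 and 6.64 in small intestine, 7.07 and 27.3 in large intestine and 7.59 and 18.8 in lung. It was listed at 0 in all 4 libraries of microglia and peritoneal macrophages and in both neutrophil libraries, so no fold change is given for these. It was called higher in both intestinal populations (limma with BH, adjusted p = 0.00244 and 2.83e-04) and in lung (0.00864), where it did not pass without lung replicate 2 (0.151). It reached the level for testing in these populations only, so these calls, and its lower calls in other populations, follow in part from that filter. The muscle markers summed to at most 8.25 in the intestinal libraries and to 1.74 and 0 in lung. Cox7a2 was at 19.2 to 188 over the 18 libraries. The others stayed low: Cox4i2 was at 3.99 or less, Cox7b2 at 2.76 or less, Cox8c at 4.13 or less and Ndufa4l2 at 2.92 or less, beside Cox4i1 at 308 to 1821 and Cox8a at 88.5 to 320.

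**Figure D5:**
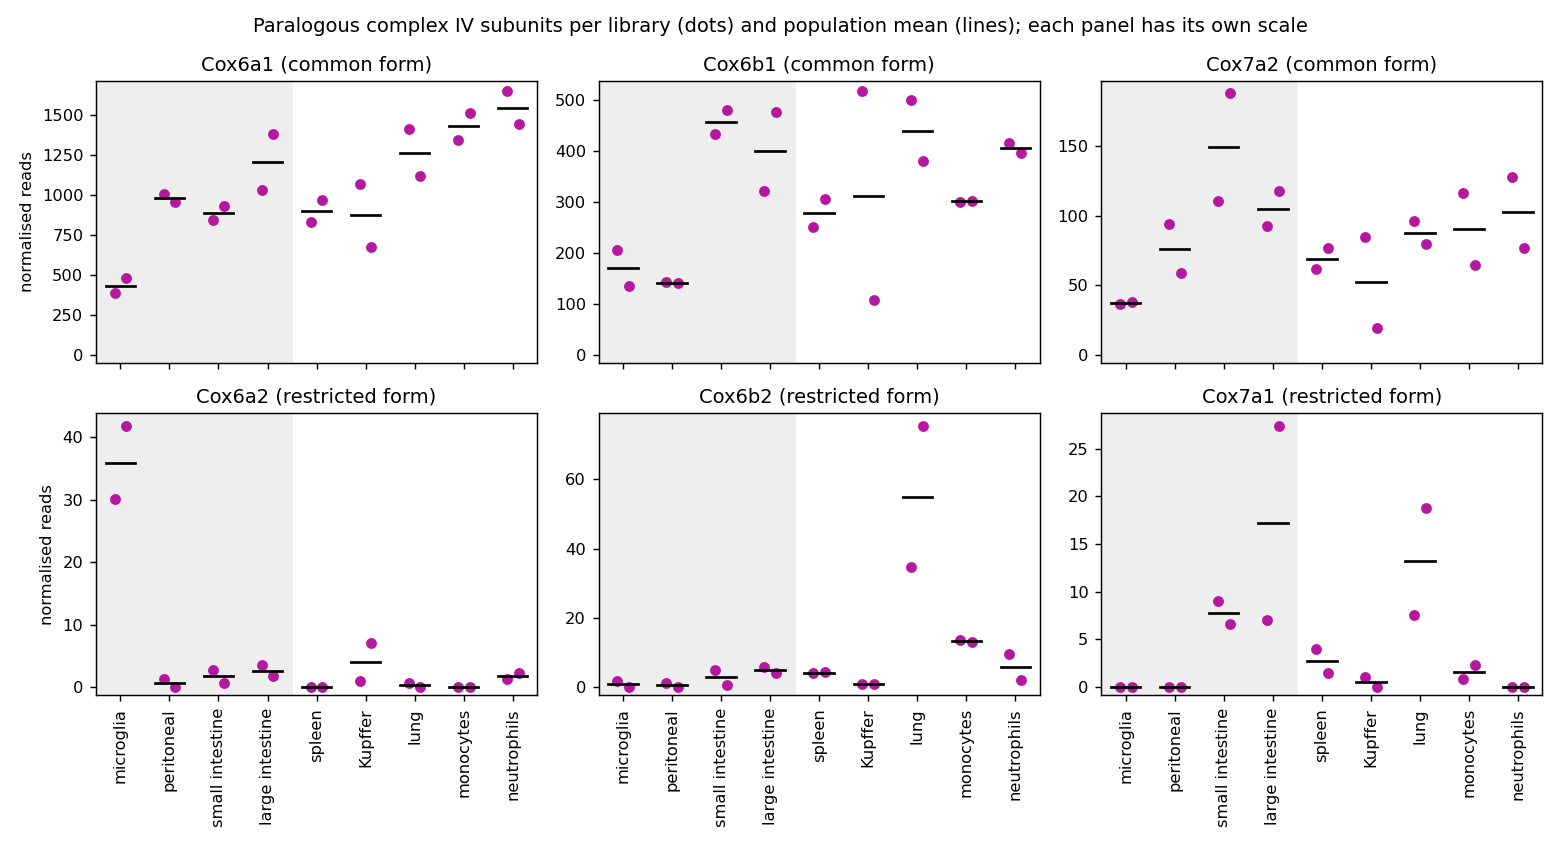
Normalised reads of 3 paralogue pairs of complex IV in every library (dots) with the mean of each population (lines); the common form is above and the restricted form below, grey shading marks experiment 1, and each panel has its own scale. Cox6a2 is at 30.1 and 41.7 in microglia and at most 7.07 elsewhere, Cox6b2 in lung (34.8 and 75.3), and Cox7a1 in the intestinal and lung libraries, while the common forms are present everywhere.

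The promoters of a restricted and a common form are shown because the paralogues differ in where they were transcribed. RefSeq windows of the 250 bases before the start site (build GRCm38.p6) were found for 75 of the 91 members. They were searched on both strands for 4 motifs: the palindromic NRF1 motif, named for the factor best known for respiratory genes; CCGGAAG, bound by ETS factors such as GABPA; AAGATGGC, bound by YY1; and the TATA box TATAAA. NRF1 matches were present in 5 of 75 windows (6.67%) against 0.781% of 27025 genes, and ETS matches in 13 (17.3%) against 7.05%. TATA matches were in 6 (8.00%) against 12.97%, and the YY1 letters in 0 against 1.59%. The median number of CpG dinucleotides was 15 in the members' windows and 6 in those of all genes. A match is a description of letters and not a binding site. The windows of Cox6b1 (chr7:30626115-30626364, minus strand), Cox6b2 (chr7:4753095-4753344, minus strand), Cox7a1 (chr7:30183921-30184170, plus strand) and Cox7a2 (chr9:79759854-79760103, minus strand) are printed from 5′ to 3′ on the strand of the gene. Capitals mark the motif match in Cox6b1, an ETS motif on the opposite strand whose first base lies at -28 from the start site.
Cox6b1: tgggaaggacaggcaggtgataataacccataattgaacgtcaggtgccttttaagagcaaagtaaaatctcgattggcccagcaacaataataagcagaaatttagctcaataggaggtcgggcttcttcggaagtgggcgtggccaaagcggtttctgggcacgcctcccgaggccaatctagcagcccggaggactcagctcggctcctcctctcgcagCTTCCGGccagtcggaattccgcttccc
Cox6b2: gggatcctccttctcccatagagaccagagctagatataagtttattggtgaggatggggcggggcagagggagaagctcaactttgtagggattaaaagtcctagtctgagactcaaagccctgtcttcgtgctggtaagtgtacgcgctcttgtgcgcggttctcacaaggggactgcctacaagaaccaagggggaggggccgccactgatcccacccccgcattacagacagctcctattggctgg
Cox7a1: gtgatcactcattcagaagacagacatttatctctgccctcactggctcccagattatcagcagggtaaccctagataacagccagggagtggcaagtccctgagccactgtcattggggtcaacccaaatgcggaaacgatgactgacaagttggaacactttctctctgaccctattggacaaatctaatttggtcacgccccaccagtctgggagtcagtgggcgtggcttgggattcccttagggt
Cox7a2: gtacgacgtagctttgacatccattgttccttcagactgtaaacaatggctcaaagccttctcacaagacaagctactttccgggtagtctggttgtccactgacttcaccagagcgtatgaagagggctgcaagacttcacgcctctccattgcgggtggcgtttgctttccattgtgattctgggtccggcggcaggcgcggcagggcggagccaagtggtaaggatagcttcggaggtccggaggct
The common forms Cox6b1 and Cox7a2 hold 14 CpG dinucleotides each, and the restricted forms Cox6b2 and Cox7a1 hold 8 and 4. Cox7b and its restricted paralogue Cox7b2 go the other way, with 5 and 9. No window was found for Cox6a2. The printed pairs are therefore a description and not a rule for common and restricted forms.

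Other genes of mitochondrial metabolism are given beside the shares of all genes called in the same comparisons. Of 13 TCA cycle genes 3 fell in microglia, where 15.1% of all genes fell: Fh1, fumarase, by 1.70, Idh3a, an isocitrate dehydrogenase subunit, by 1.58 and Mdh2, malate dehydrogenase, by 1.01 on the log2 scale. In each intestinal population 2 rose, where 12.5% and 12.8% of all genes rose. None was called in peritoneal, spleen, Kupffer and lung macrophages. Of 20 tested assembly factors outside the symbol rule, 0 were called in small intestine, spleen, Kupffer, lung and monocytes, 1 fell in each of microglia and peritoneal macrophages, and 1 rose in large intestine. Of 10 carriers and uncoupling proteins, Ucp2, a mitochondrial carrier of the uncoupling protein family, rose in small and large intestine (1.16 ± 0.21 and 1.59 ± 0.21) and in lung (1.10 ± 0.21), and fell in Kupffer cells (-1.08 ± 0.21). Ucp3, its relative of skeletal muscle, was at 84.7 and 62.0 normalised reads in lung and at 10.96 or less in every other library.

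Of 12 tested regulators of mitochondrial genes, 2 rose and 1 fell in microglia. Hif1a, a hypoxia factor, and Polrmt, the mitochondrial RNA polymerase, rose (1.28 ± 0.41 and 1.71 ± 0.60), and the coactivator Ppargc1b, at 0.94 and 15.8 normalised reads against 16.4 to 46.6, fell (-2.24 ± 0.64). In peritoneal macrophages Hif1a fell (-1.53 ± 0.41) and Polrmt was listed at 0 in both libraries. In small intestine Polrmt was called higher (1.86 ± 0.63), and in large intestine Gabpa, an ETS factor, fell (-2.05 ± 0.60). Polrmt was at 31.0 and 14.8 normalised reads in microglia, 19.1 and 15.3 in small and 20.0 and 11.6 in large intestine. These values overlapped, so the calls of Polrmt in microglia and small intestine rest on the zeros of peritoneal macrophages. Ppargc1b and Yy1, a zinc finger factor, fell in monocytes, and Ppargc1b and Pprc1, a related coactivator, fell in neutrophils.

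The lists are given in neutrophils on the deposited scaling only, and scaling to equal totals moves these values down. On the deposited scaling 22.9% of all genes fell and 15.9% rose in neutrophils. Of 13 TCA cycle genes 3 fell (Idh3a, Fh1 and Suclg2) and 1 rose (Mdh2, 1.72 ± 0.25). Of the 20 assembly factors 5 fell and 0 rose, and of 76 mitochondrial ribosomal protein genes 23 fell and 2 rose. Slc25a4, an ADP/ATP carrier, was at 26.2 and 30.8 normalised reads in neutrophils against 129 to 204 in the macrophages of the experiment, lower by a log2 value of -2.43 ± 0.24 (adjusted p = 1.93e-07, limma with BH). Ppargc1b was at 2.76 and 0 in neutrophils and at 52.0 to 161 in those macrophages. Cytosolic ribosomal protein genes had 2 rising and 26 falling members of 89 (median -0.67).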

How the data were processed

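RNA of 18 libraries was read as deposited normalised reads, a signal for each transcript. Most values of a library were whole multiples of 1 step, which was taken as the worth of 1 read, and the rest were not. How the authors set the scaling of a library is not stated in the labels. Reads were aligned with TopHat to mm9, per the submitters' processing notes. Within a library 86.6 to 88.9% of values were whole multiples of 1 read (tolerance 0.01 read), too few for a count test. Of 20814 transcripts, the highest-mean one stood for each of 16319 genes. The 235 entries without a symbol were kept under their transcript identifiers and are counted among these genes.

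Values were tested as log2(value + 1.11) with limma 3.58.1 in R 4.3.3 (moderated tests with a mean-variance trend, 9 populations in 1 model of 18 libraries), on 12098 genes at 5.53 or more in at least 2 libraries. p-values were adjusted over these genes by the Benjamini-Hochberg method (BH), and a fold change on this scale understates the change of low genes. Log2 fold changes are given ± SE. The fit was tested on simulated data. Tables and figures used Python 3.11.15, numpy 2.4.6, pandas 2.3.3, scipy 1.17.1 and matplotlib 3.10.9. The naming rule took up to 6 called members per direction and comparison whose libraries did not overlap the comparator, the tissue-restricted paralogues with their partners, and the highest and lowest F within each complex. Of these the text gives the clearest examples, and further members were picked after their values were seen. Members and lists were chosen with earlier results of these data known. Many subunit genes have processed pseudogenes, and the counting of reads shared by copies is not stated in the labels. Alternatives were another pseudocount, no filter, 3 other scalings (the same upper quartile was added after seeing the data), a replicate block, the libraries of the same experiment alone, comparator macrophages of both experiments, and leaving out each library. A complex I gene counted among the members is not reported here by name.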

Additional observations from a re-analysis of the deposited data

How the results depend on the processing

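Counts of members called are given, without the share of all genes called under the same setting. With columns scaled to equal totals the count was 5 in peritoneal macrophages, 14 in large intestine and 30 for monocytes against neutrophils, and with quantile normalization 10 in neutrophils and 16 for monocytes against neutrophils. In Kupffer cells the larger pseudocount and the fit without a filter gave 1 each. With libraries of the same experiment alone the counts were 2 in spleen, 1 in Kupffer cells, 7 in lung, 6 for monocytes against neutrophils and 22 for the F test of experiment 2. With comparator macrophages of both experiments they were 5 in peritoneal macrophages, 7 in spleen and 5 in lung. Upper quartile scaling moved no count by over 1.5 times, and no called member changed sign under the 3 scalings.

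Replicate numbers did not pair the libraries: deviations of same-numbered libraries correlated at -0.0377 to 0.0250. With the replicate block, which left 4 residual degrees of freedom, the counts were 2 in peritoneal macrophages, 0 in small intestine, 1 in spleen, 12 in Kupffer cells, 24 in lung, 7 in monocytes and 6 for monocytes against neutrophils.

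Leaving out 1 library at a time gave 13 to 32 in microglia, 4 to 10 in peritoneal macrophages, 8 to 24 in small intestine, 9 to 27 in large intestine, 0 to 0 between the intestinal segments, 0 to 13 in spleen, 1 to 24 in Kupffer cells, 5 to 30 in lung, 2 to 7 in monocytes, 13 to 25 in neutrophils, 5 to 11 for monocytes against neutrophils, and 28 to 58 and 28 to 62 for the F tests of experiments 1 and 2. A population left with 1 library was assumed to vary like the others. With 2 libraries a population, and 3 reads worth up to 6.59 normalised reads, differences in low genes such as Ndufa4 were poorly resolved.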
